A study of Mus musculus with 24 samples.

Results

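The genes described here are the replication-dependent histone genes listed under their older symbols. They were chosen as every row of the table whose symbol starts with Hist1h, Hist2h, Hist3h or Hist4h, and 9 of 23891 rows had such a symbol. All 9 start with Hist1h. They comprise 4 genes of histone H2A (Hist1h2an, Hist1h2ao, Hist1h2ap and Hist1h2al), 3 of H2B (Hist1h2bp, Hist1h2bq and Hist1h2br) and 2 of H4 (Hist1h4m and Hist1h4n). The table lists most other genes of this family under newer symbols. By gene position, 57 further rows matched genes that carry such Hist symbols in the GENCODE M21 annotation, among 70 genes in all. These 57 were found by position after the table had been seen, and they are given beside the 9 as the other histone genes.

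RNA-Seq was performed on the left lobe of the lung of 24 C57BL/6 mice in 4 groups. Naïve adult mice (n = 5) had an age of 20 wk and were given saline. All other mice had an age of 80 wk by the labels. Of these, 5 were naïve aged mice given saline, 7 were challenged with house-dust mite (HDM), each dose being 50 µg, and 7 had the same challenge together with the glucocorticoid drug dexamethasone (Dex), of which 4 mg/kg was given once in 72 h. Tissue was collected 24 h after HDM was last given. The level of a gene is given in CPM, the authors' read counts scaled to the same total in each sample. Bulk tissue of the left lobe was measured, so that fewer cells of a type and less RNA per cell cannot be told apart.

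Replication-dependent histones package the DNA made in S phase, and their genes lie in clusters and are transcribed mainly while DNA is copied. Their mRNAs have no introns and end in a conserved stem-loop in place of a poly(A) tail. The stem-loop is bound by Slbp, the stem-loop binding protein, and the end is cut by a complex that contains the U7 small nuclear RNA. Libraries made by poly(A) selection therefore hold few of these mRNAs, other than copies with an alternative polyadenylated end. 7SL RNA, encoded by Rn7s1 and Rn7s2, is the RNA subunit of the signal recognition particle, and it likewise has no poly(A) tail.

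The annotated transcripts of the 9 genes were searched for the histone form of the 3′ end. A stem-loop was searched as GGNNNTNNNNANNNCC on the transcript strand, with a stem of 6 complementary base pairs and a loop of 4 bases. It was present in 5 of the 9 genes and in 40 of the 57 other histone genes, against 1.188% of other annotated genes. The sequences are from GENCODE M21, 5′ to 3′, with the 16 bases of the stem-loop in capitals and its annotated flanks in lower case.
Hist1h2bp: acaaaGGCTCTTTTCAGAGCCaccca
Hist1h2ao: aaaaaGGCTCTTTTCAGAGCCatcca
Hist1h2ap: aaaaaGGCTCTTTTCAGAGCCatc
Hist1h4m: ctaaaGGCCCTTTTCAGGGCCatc
Hist1h4n: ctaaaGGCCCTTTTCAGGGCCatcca
The H2A and H2B genes had the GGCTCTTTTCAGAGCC form, found in 25 of the 66 histone genes, and the H4 genes had the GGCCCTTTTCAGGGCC form, found in 7. Transcripts that lack the stem-loop and hold a poly(A) signal near their end were annotated for all 3 H2B genes (Hist1h2bp, Hist1h2bq and Hist1h2br), and for 2 of the 57 other histone genes. The annotated models of Hist1h2an and of Hist1h2al, a processed pseudogene, held neither form of the end. The Hist1h2an model has 393 bases, and a model that stops short of the 3′ end cannot hold a stem-loop. The counts therefore describe the annotated models and not the ends of the mRNAs.

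Of the 9 genes, 8 lie together on chromosome 13 of GRCm38, in the interval chr13:21786826-21837530 of 50705 bases, and no other histone row of the table lies within it. Hist1h2al lies elsewhere on the same chromosome, at chr13:51202727-51203065 on the minus strand. In the interval, each H2A gene stands head to head with an H2B gene. Hist1h2an and Hist1h2bp are 242 bases apart, Hist1h2bq and Hist1h2ao are 267 bases apart, and Hist1h2ap and Hist1h2br are 235 bases apart. The H4 genes Hist1h4m (chr13:21811746-21812147, plus strand) and Hist1h4n (chr13:21831767-21832196, minus strand) stand beside the second and the third of these pairs. Hist1h2ap at chr13:21833026-21833507 and Hist1h2ao at chr13:21810465-21810944 are single-exon genes. Hist1h2br at chr13:21833743-21837530 and Hist1h2bq at chr13:21806612-21810197 have spliced transcripts.

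The promoter of Hist1h2ap, the gene with the highest level of the 9, is shown from the RefSeq window of Hist1h2ap, 250 bases before to 50 bases after its start (GRCm38.p6, chr13:21833426-21833725, minus strand), which overlaps the window of Hist1h2br. Capitals mark each CCAAT box, a motif bound by the factor NF-Y, on either strand.
Hist1h2ap promoter: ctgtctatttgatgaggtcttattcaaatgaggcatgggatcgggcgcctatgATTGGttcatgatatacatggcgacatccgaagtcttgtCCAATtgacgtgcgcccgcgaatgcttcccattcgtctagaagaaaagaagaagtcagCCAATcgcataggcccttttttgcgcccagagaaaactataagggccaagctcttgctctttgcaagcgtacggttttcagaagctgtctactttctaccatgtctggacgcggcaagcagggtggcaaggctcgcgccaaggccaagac
CCAAT was found on either strand in 6 of the 8 promoters available for the 9 genes, in 42 of 48 promoters of other histone genes and in 37.41% of all 32851 RefSeq promoters of this length. TATAAA, the core of a TATA box, was found in 4 of 8, in 27 of 48 and in 13.62%, respectively. The windows of each head-to-head pair of H2A and H2B genes overlap, so that the same motifs were counted for both genes of a pair. The 8 windows are therefore not 8 separate promoters.

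The copies are nearly identical, which bears on how their reads could be assigned. Hist1h2ao and Hist1h2ap had no difference over 452 aligned transcript bases, and Hist1h2bq and Hist1h2br had none over 381. Hist1h4m and Hist1h4n differed at 1 of 402 bases, by the substitution G36A, with positions counted from 1 at the 5′ end of the Hist1h4m transcript. Hist1h2an differed from both Hist1h2ao and Hist1h2ap at 5 of 393 bases. Of all stretches of 50 bases, the read length, 44.1% to 97.3% per gene (median 88.7%) also occurred in a transcript of another annotated gene, against a median of 45.8% in the other histone genes. Hist1h2an, Hist1h2ao, Hist1h2ap and Hist1h2al each overlap an annotated miRNA model on the opposite strand that is no row of the table. Whether the counting used strand is not given in the sources used here.

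Values of the 9 genes were mostly no whole numbers of reads. The steps between low CPM values gave a depth of 10.1 to 33.1 M gene-assigned reads (median 15.1 M), and 3 reads, taken as the smallest detectable amount, correspond to 0.0906 to 0.298 CPM. These limits cover counting error only. Of the values of the 9 genes below 200 reads, 8.38% of 179 lay within 0.05 of a whole number of reads, against 28.8% of 932 in the other histone genes and 77.6% of 341504 in all genes. By gene, the share was between 0% for Hist1h2al and 17.4% for Hist1h4m, and it was 20.0% for Hist1h2ap, which had only 5 values below 200 reads. Values unrelated to whole reads also fall within 0.05 of a whole number at times. Low shares, and their differences between genes, therefore need not mean whole reads. Among histone genes with at least 10 such values, the median share was 100% in the 11 genes with up to 25% shared stretches, with a range of 8.33% to 100%. It was 11.8% in the 13 genes with 25% to 50% and 9.09% in the 13 with 50% to 75%. In the 15 genes with more than 75% it was 8.70%. How fractional reads arose is not given in the sources used here, and levels of the single copies below are those of the table.

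**Figure D1:**
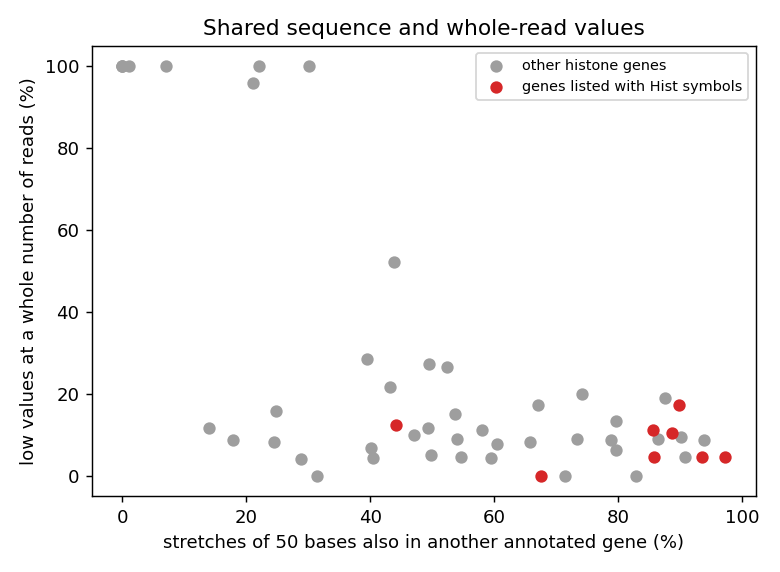
Each point is a histone gene with at least 10 values below 200 reads. The x axis is the percentage of its 50-base stretches that another annotated gene also holds, and the y axis is the percentage of its values within 0.05 of a whole number of reads. The genes listed with Hist symbols (red) stay at or below 17.4%. Other histone genes with up to 25% shared stretches lie between 8.33% and 100%.

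The level assigned to each copy differed widely. Per kb of exon, the mean over the 24 samples was highest for Hist1h2ap at 48.8 CPM, followed by Hist1h4n at 21.2, Hist1h2an at 13.9 and Hist1h4m at 10.5. Hist1h2br had 3.59 and Hist1h2ao 3.50 CPM per kb, and Hist1h2bp, Hist1h2al and Hist1h2bq had 1.29, 1.24 and 0.950 CPM per kb. The median was 3.59 CPM per kb in the 9 genes and 10.4 in the 57 other histone genes. Together, the 9 genes had 55.2 CPM, or 4.72% of the summed CPM of all 66 histone genes.

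Hist1h2ap and Hist1h2ao, whose transcripts have nearly the same length, were far apart in assigned level. Hist1h2ap was the higher in 24 of 24 samples, and in the 20 samples in which Hist1h2ao reached 3 reads the ratio of their CPM was between 3.25 and 98.0 (median 12.4). Hist1h2br was higher than Hist1h2bq in 24 of 24 samples, and in 22 samples the ratio was between 1.02 and 15.5 (median 4.29). Hist1h4n was the higher of the H4 pair in 21 of 24 samples, and the ratio was between 0.439 and 12.1 in 23 samples (median 2.10). The ratios were therefore not constant from sample to sample, although each pair has nearly the same sequence.

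Rn7s1 and Rn7s2 together held 9.92% to 41.98% of each sample's total. The 7SL share was 41.98%, 17.2%, 14.5%, 13.6% and 16.2% in the naïve adult and 10.04%, 18.1%, 9.92%, 12.1% and 10.9% in the naïve aged samples. In HDM samples, it ranged from 14.96% to 33.97% (median 28.1%), and in HDM + Dex samples from 11.3% to 31.6% (median 26.8%). The naïve adult sample at 41.98% stood apart from its group, and the HDM samples fell into 5 samples above 27% and 2 samples near 15%. The mean was 25.5% ± 7.36 (SD, n = 7) in HDM and 12.2% ± 3.41 (SD, n = 5) in naïve aged samples (adjusted p = 0.0303, two-sided exact permutation test, 4 comparisons). It was 22.6% ± 8.73 (SD, n = 7) in HDM + Dex samples, with adjusted p = 0.49 against HDM and 0.0556 against naïve aged samples in the same exact test. Naïve adult samples had 20.7% ± 11.99 (SD, n = 5), with adjusted p = 0.0952 between aged and adult samples in the same exact test. The difference between HDM and naïve aged samples was no longer past the threshold when any of 9 samples was left out, with adjusted p = 0.0519 or 0.0727 (exact permutation test).

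Of the sex-linked genes, Xist was higher than Ddx3y in all 5 naïve adult samples, 2 of 5 naïve aged samples, 2 of 7 HDM samples and 4 of 7 HDM + Dex samples. In the HDM group the 2 samples with Xist higher were the 2 with a 7SL share below 25%, so that sex and 7SL share cannot be told apart there.

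The summed CPM of the 9 genes is shown next to the 7SL share because histone mRNAs and 7SL RNA normally lack a poly(A) tail. The sum was 19.2, 29.5, 39.0, 31.6 and 48.0 CPM in naïve adult samples and 26.4, 53.5, 45.8, 67.9 and 45.2 CPM in naïve aged samples. It ranged from 23.9 to 127.6 CPM (median 62.6) in HDM and from 18.3 to 113.5 CPM (median 53.6) in HDM + Dex samples. The 4 groups overlapped, and the spread was widest in the challenged groups. HDM samples 6 and 7, with 7SL shares of 15.4% and 14.96%, had the highest sums, 127.6 and 118.7 CPM. The 5 HDM samples with a share of at least 25% had 23.9 to 75.4 CPM (median 62.5).

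In the HDM + Dex group the sums did not separate by 7SL share. The 4 samples with a share of at least 25% had 18.3 to 87.0 CPM, and the 3 samples below 25% had 24.1, 72.6 and 113.5 CPM. By sex-linked genes, the 4 samples with Xist higher had 24.1 to 113.5 CPM (median 79.8) and the 3 with Ddx3y higher had 18.3 to 53.6 CPM (median 24.0). The naïve adult sample with a 7SL share of 41.98% had the lowest sum of its group, 19.2 CPM. On a total without 7SL and rRNA rows, its sum was 44.7, the median of its group. Over the 24 samples, with group means removed, the mean log2(CPM + 1) of the 7 genes tested below had a Pearson r of -0.58 with the log2 7SL share. The samples share their total of CPM, so that a larger 7SL share lowers every other value, and r is given as a description only.

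A share of the total taken by 7SL RNA scales all other genes, and sums were therefore also recomputed on a total that leaves out Rn7s1, Rn7s2 and the 11 rRNA rows. The mean was then 47.2 for naïve adult, 61.0 for naïve aged, 108.6 for HDM and 80.02 for HDM + Dex samples. The order of the groups was that of the CPM as deposited, in which the means were 33.5 ± 10.8, 47.8 ± 15.02, 74.9 ± 36.6 and 56.1 ± 36.5 CPM (SD, n = 5, 5, 7 and 7). Scaled by median-of-ratios size factors, the means were 33.1, 41.9, 74.98 and 54.8, in the same order of groups.

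**Figure D2:**
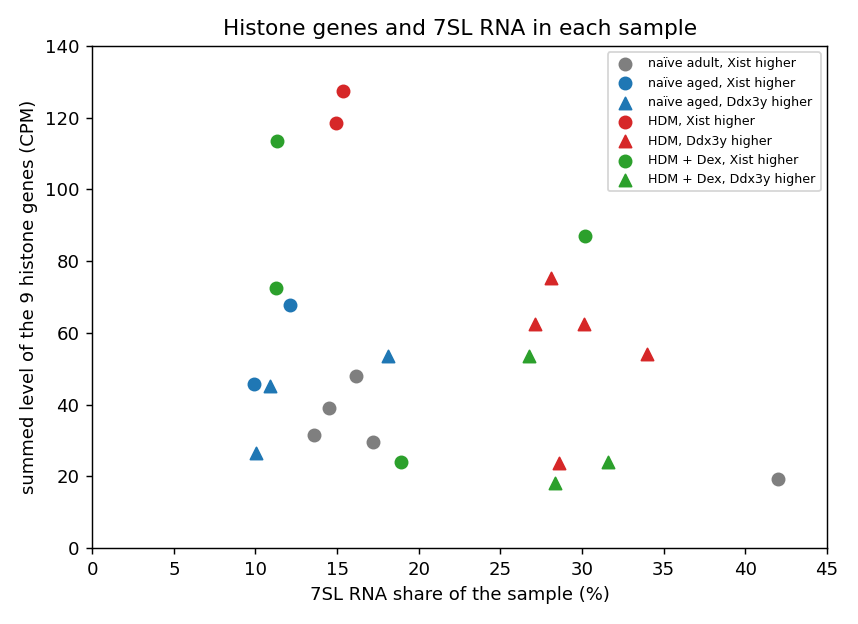
Each point is a sample, with its 7SL RNA share of the total in percent (x axis) and the summed CPM of the 9 histone genes (y axis). Colors mark the 4 groups and shapes mark whether Xist or Ddx3y was higher. HDM samples 6 and 7 lie at 127.6 and 118.7 CPM with 7SL shares near 15%, and the other HDM samples lie between 23.9 and 75.4 CPM above 27%.

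The first question was whether HDM challenge of aged mice changed these genes. Differences were tested on log2(CPM + 1) with limma in genes whose mean over all samples reached 1 CPM, which kept 7 of the 9 genes and left out Hist1h2bp and Hist1h2al. No gene of the 7 passed an adjusted p of 0.05 (0 of 7, and 0 of 7 at an unadjusted p under 0.05, limma), whereas 25.3% of all 17744 genes did, 4.04% higher and 21.2% lower in HDM samples, and 39.2% had an unadjusted p under 0.05. All 7 had a positive log2 fold change, with a median of 0.48, beside a median of -0.23 over all genes tested. With median-of-ratios rescaling, the median over all genes was -0.01 and that of the 7 was 0.61, with 0 of 7 past the threshold (limma), and the calls over all genes went from 717 higher and 3765 lower to 1934 higher and 2049 lower. Adjusted p-values were between 0.362 and 0.882 (limma).

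The H2A gene Hist1h2ap had 10.6, 21.2, 17.4, 37.6 and 12.8 CPM in naïve aged samples and 11.6 to 52.3 CPM (median 32.2) in HDM samples. The groups overlapped, with HDM samples 6 and 7 above every naïve aged sample. The log2 fold change was 0.55 ± 0.45 (SE, adjusted p = 0.370, limma). Hist1h2an had 2.22, 6.08, 5.44, 4.32 and 5.09 CPM in naïve aged and 1.96 to 17.5 CPM (median 8.33) in HDM samples. With each HDM sample set against each naïve aged sample, the former was higher in 23 of 35, with a log2 fold change of 0.54 ± 0.43 (SE, adjusted p = 0.368, limma). Hist1h2ao had a mean of 2.56 ± 1.95 CPM in HDM and 1.39 ± 0.973 CPM in naïve aged samples (SD), with a log2 fold change of 0.48 ± 0.40 (SE).

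The H4 genes had values of similar size. Hist1h4n had 4.28, 9.03, 7.01, 3.78 and 12.7 CPM in naïve aged and 4.44 to 25.0 CPM (median 10.2) in HDM samples, with a log2 fold change of 0.53 ± 0.42 (SE, adjusted p = 0.362, limma). Hist1h4m had 4.31, 2.65, 4.41, 5.26 and 3.53 CPM in naïve aged and 1.49 to 10.3 CPM (median 5.67) in HDM samples, with 0.41 ± 0.48 (SE). HDM samples 6 and 7 were the highest of their group for Hist1h4n, and the groups overlapped for both genes.

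The H2B genes had the smallest log2 fold changes. Hist1h2br had a mean of 10.2 ± 5.21 CPM in HDM and 7.44 ± 3.48 CPM in naïve aged samples (SD), and its log2 fold change was 0.32 ± 0.43 (SE). Hist1h2bq had 0.745, 2.82, 1.64, 2.16 and 1.44 CPM in naïve aged samples and reached from the level of no read to 6.02 CPM (median 2.49) in HDM samples, with 0.10 ± 0.42 (SE). HDM samples 1 and 2 held under 1 read of Hist1h2bq, and with a pseudocount of 0.1 its log2 fold change was -0.47. Of the genes below 1 CPM, Hist1h2bp had means of 1.41 and 0.780 CPM, and Hist1h2al had 0.657 and 0.448 CPM, in HDM and naïve aged samples.

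With the samples whose 7SL share was below 25% only, which left 2 HDM, 5 naïve aged and 3 HDM + Dex samples, 1 of the 7 genes, Hist1h2bq, passed the threshold in HDM vs. saline, and the median log2 fold change was 1.30. In that fit 658 of all genes were called higher and 414 lower, with a median of 0.034. This alternative was added after seeing the data. The 2 HDM samples it kept, 6 and 7, were those with the highest histone sums of their group and with Xist higher. The choice of samples, 7SL share and sex cannot be told apart here. The larger fold change is therefore no separate evidence of a difference. No naïve aged sample had a share of at least 25%, so that no value within that range can be given. A fit with a covariate for the 7SL share gave 0 of 7 (limma) and a median of 1.34, with 1172 of all genes called higher, 399 lower and a median of 0.071.

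Summed over the copies of a family, the 4 H2A genes had 26.4 ± 11.3 CPM in naïve aged and 42.1 ± 20.4 CPM in HDM samples (SD, n = 5 and 7). The 3 H2B genes had 9.98 ± 4.13 and 14.2 ± 7.14 CPM, and the 2 H4 genes had 11.4 ± 3.04 and 18.6 ± 10.7 CPM. The mean in HDM was 1.60, 1.42 and 1.63 times that in naïve aged samples for H2A, H2B and H4, and each difference was smaller than the SD of the HDM samples.

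**Figure D3:**
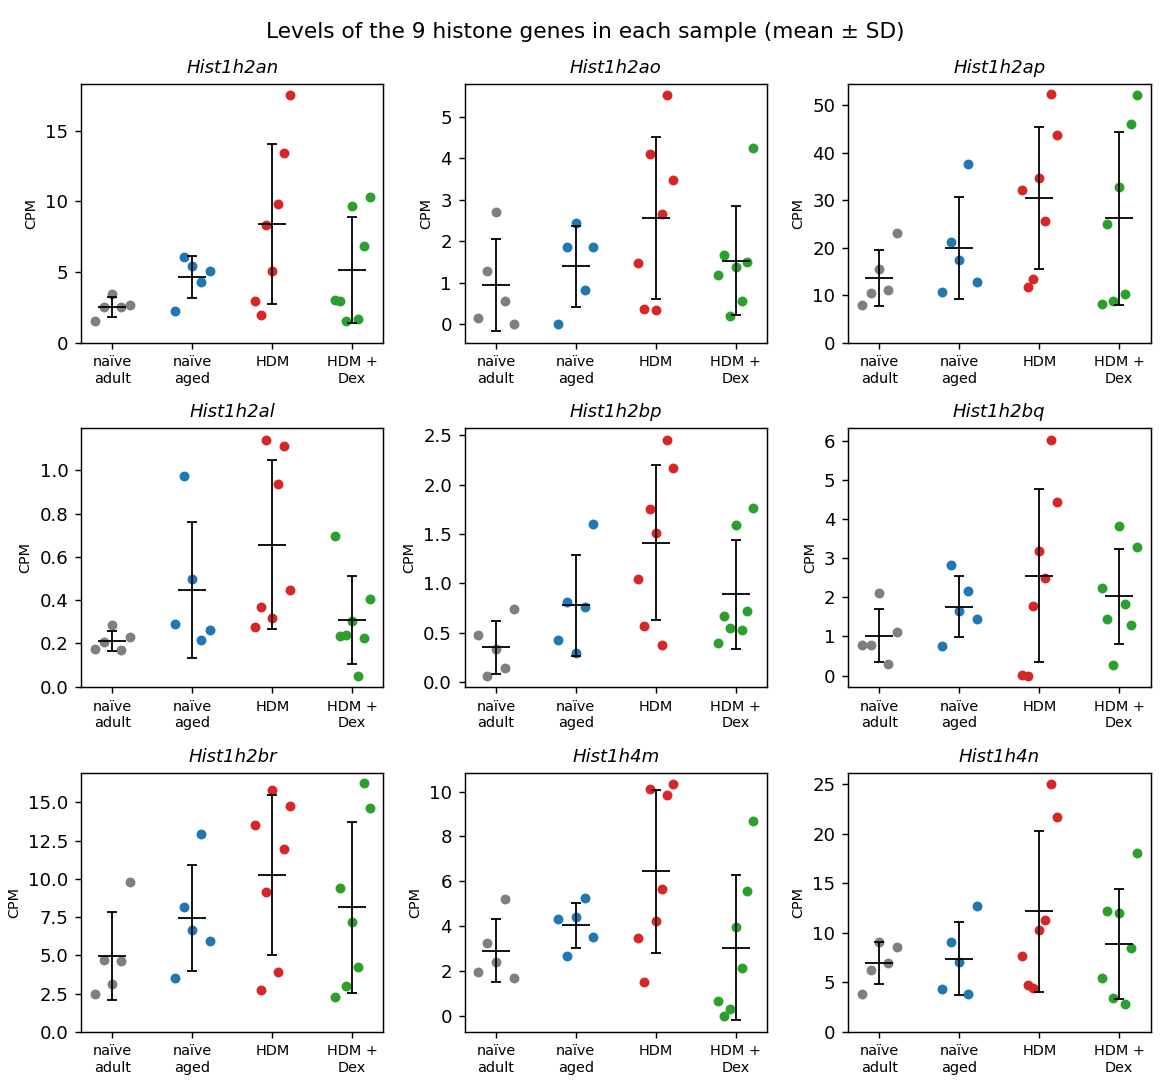
Each panel shows a histone gene, with a point per sample, the group on the x axis, CPM on the y axis and the mean with SD in black. An HDM sample has the highest value for 8 of the 9 genes, all but Hist1h2br, and the 4 groups overlap in every panel.

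The second question was whether Dex changed these genes in HDM-challenged mice. In HDM + Dex vs. HDM, 0 of 7 passed the adjusted p (limma, 1 of 7 at an unadjusted p under 0.05), against 0.964% and 13.5% of all genes. All 7 had a negative log2 fold change, from -1.14 to -0.03, with a median of -0.39 against 0.03 over all genes tested. This comparison and HDM vs. saline share the HDM samples, so that the opposite signs are not independent of each other.

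Hist1h4m had the largest difference of the 7. Its values were 0.647, under 1 read, 0.282, 3.94, 2.13, 5.58 and 8.66 CPM in HDM + Dex samples 1 to 7, and 3.48, 1.49, 10.1, 4.22, 5.67, 9.86 and 10.3 CPM in HDM samples 1 to 7. The groups overlapped, and 3 HDM + Dex samples lay below every HDM sample. The mean was 3.04 ± 3.22 CPM against 6.45 ± 3.63 CPM (SD), with a log2 fold change of -1.14 ± 0.43 (SE, adjusted p = 0.217, limma). With a sex covariate, the log2 fold change was -1.51 and passed the threshold (adjusted p = 0.0283, limma). In that fit 129 of all genes were called higher and 164 lower. Over all alternatives the adjusted p of Hist1h4m was between 0.0283 and 0.592 (limma). Its near-identical copy Hist1h4n had 8.89 ± 5.55 CPM in HDM + Dex and 12.1 ± 8.14 CPM in HDM samples (SD), with -0.39 ± 0.39 (SE). In the HDM + Dex sample with under 1 read of Hist1h4m, Hist1h4n had 12.2 CPM. Hist1h4m held up to 43.5% of the CPM of the pair in HDM + Dex samples (median 24.8%) and 24.0% to 69.5% in HDM samples (median 31.4%), and the pair together had 11.9 ± 8.08 and 18.6 ± 10.7 CPM.

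Hist1h2ap ranged from 8.11 to 52.2 CPM (median 25.0) in HDM + Dex samples, over nearly the same range as in HDM samples, with a log2 fold change of -0.37 ± 0.41 (SE). Hist1h2an had 5.15 ± 3.75 CPM (SD) against 8.43 ± 5.66 CPM in HDM samples, with -0.60 ± 0.40 (SE). Hist1h2ao had -0.42 ± 0.37, Hist1h2br had -0.37 ± 0.39 and Hist1h2bq had -0.03 ± 0.38 (SE) on the log2 scale. HDM + Dex sample 7, with a 7SL share of 11.3%, was the highest of its group for Hist1h2an, Hist1h2ao, Hist1h2ap, Hist1h2bp, Hist1h4m and Hist1h4n.

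In HDM + Dex vs. saline, 0 of 7 passed the adjusted p (limma, 0 of 7 at an unadjusted p under 0.05), against 1.89% and 21.2% of all genes. The median log2 fold change was 0.06, against -0.19 over all genes tested, and 4 of the 7 values were positive. Hist1h4m had the lowest, -0.73 ± 0.48 (SE, adjusted p = 0.355, limma), and Hist1h2ap the highest, 0.18 ± 0.45 (SE). Hist1h4m passed the threshold with sample quality weights (-1.12, adjusted p = 0.0340, limma) and was at 0.022 with the 7SL share as a covariate. All-gene counts with sample quality weights are not given here. Over all alternatives the adjusted p of Hist1h4m was between 0.0340 and 0.996 (limma).

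The third question was whether these genes differed with age in naïve mice. In aged vs. adult, 0 of 7 passed the adjusted p (limma, 1 of 7 at an unadjusted p under 0.05), against 0.654% and 11.2% of all genes. All 7 had a positive log2 fold change, with a median of 0.47 against 0.19 over all genes tested. With median-of-ratios rescaling the medians were 0.29 and 0.00. All naïve adult samples had Xist higher, whereas 3 of 5 naïve aged samples had Ddx3y higher. With the samples with Xist higher alone, an alternative added after seeing the data, 0 of 7 passed (limma) and the median was 0.64. That fit kept only 2 naïve aged and 5 naïve adult samples. Over all genes its median was 0.21, with 112 called higher and 3 lower. Naïve adult sample 1, the one with a 7SL share of 41.98%, also held 1881 genes at the added constant. In the same samples, 3 of 5 neutrophil and macrophage markers were higher in naïve aged mice (limma), with summed levels of 89.93 to 203.7 against 17.6 to 65.32 CPM. Of 5 lymphocyte and plasma cell markers, 2 were higher (limma), with 87.91 to 665.3 against 11.82 to 64.64 CPM. Their part in the histone values was not tested. Single genes named in this comparison and in HDM + Dex vs. saline were chosen after their values were seen. Hist1h2an had 1.51, 2.52, 3.43, 2.51 and 2.70 CPM in naïve adult and 2.22, 6.08, 5.44, 4.32 and 5.09 CPM in naïve aged samples, and 4 of the 5 aged samples lay above every adult sample. Its log2 fold change was 0.65 ± 0.23 (SE, adjusted p = 0.299, limma). Hist1h2ap had 7.91, 10.5, 15.5, 11.2 and 23.1 CPM in naïve adult samples, with 0.47 ± 0.31 (SE). Hist1h4n had 3.77, 6.26, 9.05, 6.97 and 8.60 CPM in naïve adult samples, and with 0.01 ± 0.29 (SE) it had the smallest difference of the 7, at -0.16 with median-of-ratios rescaling.

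**Figure D4:**
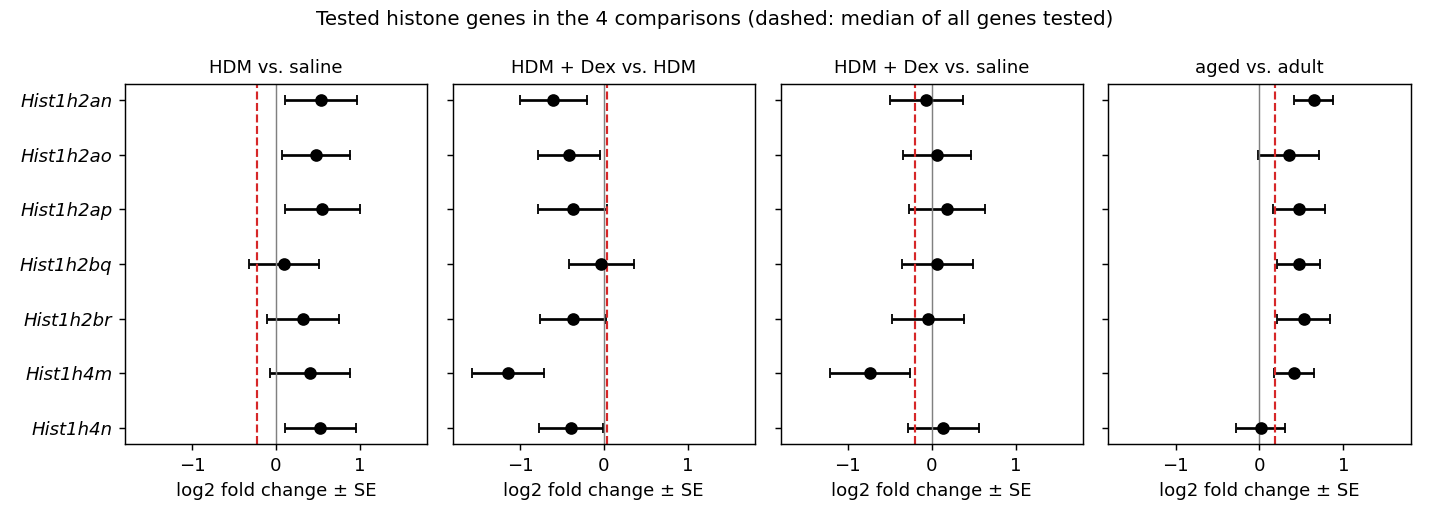
The log2 fold change with its SE (x axis, limma on log2(CPM + 1)) of the 7 tested genes (y axis) is shown in the 4 comparisons, with the median of all genes tested as a dashed line. All 7 points lie above 0 in HDM vs. saline and in aged vs. adult and below 0 in HDM + Dex vs. HDM, and none passed the adjusted threshold.

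The values assigned to the 7 genes moved together from sample to sample. After group means were removed, the 21 pairs of genes had a Pearson r of log2(CPM + 1) between 0.30 and 0.86 over the 24 samples (median 0.53). The genes outside the 9 whose pattern was most like their mean are H2ac4 (r = 0.95), Mcm5 (0.94), H2ac10 (0.94), H3c3 (0.94), Sting1 (0.94), H4c12 (0.94), H2ac15 (0.93), H3c7 (0.93), H3c8 (0.93) and H2ax (0.92). Of these 10, 7 are other histone genes of chromosome 13, H2ax is the histone variant phosphorylated at DNA breaks, Mcm5 is a subunit of the replicative helicase and Sting1 is an adaptor of cytosolic DNA sensing. Each sample's values share 1 total, and the median r over all 17737 genes was 0.35. Histone genes also share sequence. Of the stretches of read length, a median of 88.7% in the 9 genes also occurred in another annotated gene. It was 47.0% (H3c3) to 79.7% (H2ac10) in the 7 other histone genes named here. The part of shared reads in r between histone genes, here and in the list below, was not tested. Such r is therefore given as a description only. Rn7s1 and Rn7s2 had r of -0.62 and -0.50.

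By list, the median r was 0.83 over 54 other histone genes, 0.83 over 27 DNA replication genes and 0.85 over 19 mitosis genes. It was 0.56 over 14 genes of histone mRNA processing, 0.49 over 14 histone chaperones, 0.37 over 11 replication-independent histones and 0.52 over 10 other RNAs without a poly(A) tail. The summed CPM of the 28 DNA replication genes was 541.2 and 454.2 in HDM samples 6 and 7, which had the highest histone sums, and was the lowest of its group in HDM + Dex sample 3, which had the lowest histone sum of all samples.

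**Figure D5:**
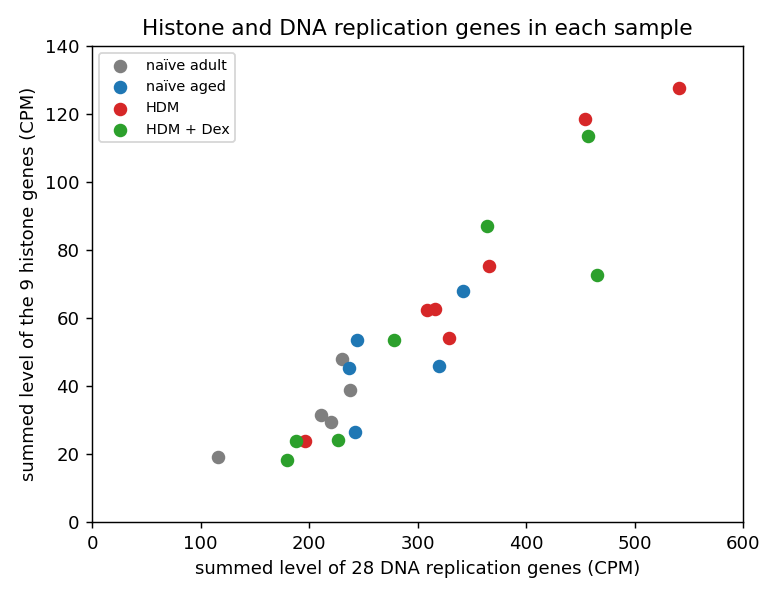
Each point is a sample, with the summed CPM of 28 DNA replication genes (x axis) and of the 9 histone genes (y axis), colored by group. HDM + Dex sample 3 has the lowest histone sum, at 18.3 CPM, and HDM sample 6 is the highest in both sums, at 541.2 and 127.6 CPM.

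Genes that act in S phase and mitosis are given as a record of cycling cells in the same samples. In HDM vs. saline, 2 of 27 DNA replication genes tested passed, both higher in HDM samples, beside 4.04% higher among all genes. They encode subunits of the replicative helicase, Mcm3 with 40.6 ± 9.95 CPM in HDM and 25.4 ± 7.80 CPM in naïve aged samples (log2 fold change 0.66, adjusted p = 0.0246, limma) and Mcm2 with 27.5 ± 7.31 and 16.4 ± 2.47 CPM (0.67, adjusted p = 0.0426, limma). Mcm6, the DNA replication gene with the highest level, had 42.2 ± 14.05 and 29.9 ± 7.05 CPM. Of 19 mitosis genes, 1 passed, the spindle checkpoint kinase Bub1b with 20.6 ± 8.48 and 10.6 ± 3.14 CPM (0.83, adjusted p = 0.0365, limma), and all 19 had a positive log2 fold change. Mki67, the proliferation antigen, had 156.3 ± 74.2 and 117.7 ± 57.4 CPM, and Top2a, which untangles replicated DNA, had 64.3 ± 29.1 and 37.3 ± 16.2 CPM. In the other 3 comparisons, no gene of these lists passed the adjusted p (limma), with 0 and 1 of them at an unadjusted p under 0.05 in HDM + Dex vs. HDM, 0 and 0 in HDM + Dex vs. saline, and 8 and 6 in aged vs. adult, where the shares over all genes were 13.5%, 21.2% and 11.2%.

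Of the 54 other histone genes tested, 2 passed in HDM vs. saline, both higher, which is near the 4.04% called higher among all genes (25.3% in either direction). The linker histone gene H1f5 had 55.3 CPM in HDM and 23.1 CPM in naïve aged samples (log2 fold change 1.18 ± 0.39 SE, adjusted p = 0.0317, limma), and the H2A gene H2ac21 had 4.94 and 2.56 CPM (0.72 ± 0.17 SE, adjusted p = 0.00529, limma). H1f5 shared no stretch of 50 bases with another gene, and the HDM sample was the higher in 32 of 35 pairs with a naïve aged sample. H2ac21 was higher in all 35 pairs, and it overlaps an annotated antisense gene. The call of H1f5 was lost when any of 5 samples was left out, with adjusted p of up to 0.0939 (limma), and that of H2ac21 in none of 19. With the 7SL share as a covariate, H2ac21 had 0.62 and no longer passed (adjusted p = 0.0633, limma). The median log2 fold change of the 54 was 0.32, and 43 were positive. The most abundant, H1f2 and H1f4, had -0.26 and -0.34 and did not pass. Their sum was 412.7 CPM in HDM and 507.0 CPM in naïve aged samples. All 57 summed to 1237 ± 497 and 1143 ± 207 CPM (SD). The median was 0.58 over the 15 in the part of the chromosome 13 cluster that surrounds the 8 genes, H1f5 among them. It was 0.26 over 28 elsewhere on chromosome 13 and 0.019 over 9 of the Hist2 cluster. The single genes of Hist3 and Hist4 had -0.16 and -0.15. These differences between clusters were not tested. In HDM + Dex vs. HDM, the 54 had a median of -0.35 and 0 passed (limma, 2 at an unadjusted p under 0.05). In aged vs. adult, their median was 0.47, 51 of 54 were positive, and 0 passed (limma, 20 at an unadjusted p under 0.05). Over all genes the median was 0.19, 14018 of 17744 were positive and 11.2% had an unadjusted p under 0.05, and with median-of-ratios rescaling the median of the 54 was 0.30.

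Lists of genes that handle histones and their mRNAs did not move in a single direction in HDM vs. saline. Over all genes tested in this comparison, 4.04% were called higher and 21.2% lower (limma). Of 14 histone mRNA processing genes tested, only Npat, the coactivator of histone gene transcription, passed, with 12.1 ± 3.84 CPM in HDM and 20.2 ± 4.97 CPM in naïve aged samples (-0.70, adjusted p = 0.0319, limma). Its log2 fold change was 0.027 in a fit with the 7SL share as covariate. Srrt had 98.8 and 98.1 CPM and Upf1 had 75.3 and 76.7 CPM. Among 14 chaperones, Asf1b, the isoform of cycling cells, was higher with 4.99 ± 1.62 against 2.05 ± 0.819 CPM (0.96, adjusted p = 0.0225, limma). Asf1a and Nap1l1 were lower, with 8.61 against 13.9 CPM (-0.62, adjusted p = 0.0155, limma) and 42.3 against 69.7 CPM (-0.68, adjusted p = 0.0301, limma). Neither passed with the 7SL share as a covariate, at -0.18 and -0.057, and Nap1l1 no longer passed with median-of-ratios rescaling (-0.43, adjusted p = 0.0659, limma). Atrx had 455.8 and 539.4 CPM, and Supt16 had 176.8 and 180.3 CPM.

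Of the 11 replication-independent histones, most of whose mRNAs are polyadenylated (H2ax makes both forms), H3f3b was lower in HDM samples, with 270.7 ± 32.2 against 388.3 ± 52.4 CPM (-0.52, adjusted p = 0.00855, limma), and H3f3a had 91.1 against 119.9 CPM. With median-of-ratios rescaling, H3f3b had -0.26 and no longer passed. Among all genes in HDM vs. saline, 21.2% were called lower and 4.04% higher (limma). Of 10 other RNAs without a poly(A) tail, the U3 small nucleolar RNA Rnu3a was higher in HDM samples, with 638.1 ± 316.3 against 129.9 ± 37.9 CPM (2.17, adjusted p = 0.00178, limma). Rn7sk had 6669 against 8354 CPM and Rpph1 had 3202 against 3097 CPM. In aged vs. adult, the U1 small nuclear RNA Rnu1b1 was higher, with 4.32 ± 2.16 against 1.31 ± 0.312 CPM (1.12, adjusted p = 0.0429, limma). It no longer passed with median-of-ratios rescaling (0.94, adjusted p = 0.111, limma) or with the 7SL share as a covariate (1.19, adjusted p = 0.0698, limma). Genes of small nuclear RNA have near-identical copies, so that these values are uncertain. Rn7s2 had 133240 and 65959 CPM in HDM and naïve aged samples, with a log2 fold change of 1.00 ± 0.37 (SE, adjusted p = 0.0526, limma), and Rn7s1 had 121399 and 56128 CPM with 1.07 ± 0.45 (SE, adjusted p = 0.0827, limma).

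Markers of other cells moved with HDM challenge in the same samples. All 4 heart muscle markers (Myh6, Actc1, Tnnt2 and Tnni3) were lower in HDM than in naïve aged samples and passed the adjusted p (limma), with a summed level of 21.04 to 414.7 CPM in HDM and 542.3 to 986.5 CPM in naïve aged samples. All 4 endothelium markers were also lower, with 604.6 to 1032 and 984.3 to 1414 CPM. Of all genes tested, 21.2% were called lower in this comparison (limma), and their median log2 fold change was -0.23. Rescaled values of the markers are not given here. Of 5 lung epithelium markers, only Scgb1a1 passed, with 2519 to 6893 and 8618 to 15050 CPM summed, so that the labelled tissue was present in every sample. Lymphocyte and plasma cell markers summed to 188.6 to 677.4 and 87.9 to 665.3 CPM. Neutrophil and macrophage markers summed to 46.75 to 255.4 and 89.9 to 203.7 CPM, with 2 of 5 lower, and 0 of 4 erythroid markers passed (limma, 1 at an unadjusted p under 0.05), with 182.4 to 838.8 and 349.0 to 941.9 CPM. The part of these cells in the histone values was not tested.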

How the data were processed

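RNA of the left lung lobe was sequenced in 24 samples. The study's methods give a stranded mRNA kit, paired reads of 50 bases and a pipeline of Picard, STAR and limma, run by the authors. The submitters' processing notes name FastQC, STAR, DESeq2 and mm9, but 23613 of 23891 rows matched gene positions of GRCm38, each ending 1 base later than annotated. The authors deposited CPM with 0.0001 added to every value. The rule for reads that fit several genes is not given in the sources used here. Only part of the low values were whole reads (77.6% of those below 200 reads, within 0.05 read), so no count test was run.

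Groups followed the labels. limma 3.58.1 (R 4.3.3) was fitted to log2(CPM + 1) for genes whose mean reached 1 CPM, with eBayes trend and Benjamini-Hochberg adjustment over all 17744 genes at 0.05, in 1 fit of the 19 aged samples and 1 of the 10 naïve samples. The step was tested on simulated data. A fold change on this scale understates the change of low genes. Nothing in the labels says how the animals of a group were raised or processed, so p-values measure the spread between these samples. The 7SL share was compared by exact permutation tests (scipy 1.17.1). Figures used matplotlib 3.10.9.

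Named were the 8 genes of the 9 with the highest mean CPM, up to 4 called genes in each direction, the 3 tested genes with the largest and the 3 with the smallest log2 fold change in HDM vs. saline, the 2 most abundant and any called gene of each list, Rn7s1 and Rn7s2, and the 10 genes most like the tested genes. Hist1h2al, outside this rule, was added so that each of the 9 is accounted for. Members and lists were chosen with earlier results of these data known. The alternatives were other pseudocounts, filters, scalings, fits, weights, covariates, a replicate block and leaving out each sample. Replicate numbers did not pair the samples. A further deposited file held no measurements and was not used. The result of 1 marker list is not reported here.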

Additional observations from a re-analysis of the deposited data

Results flagged for a closer look

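Of 48 groups of values examined (9 genes, 2 sums and the 7SL share in 4 groups), 4 held a sample far from the rest of its group, where chance gives about 2.4. The naïve adult sample 1 had a 7SL share of 41.98%, with the nearest of the group at 17.2%. It also had the lowest summed CPM of the 57 other histone genes, 502.3 against 851.6 in the nearest sample. On a total without 7SL and rRNA rows, its sum of the 57 was 1168, and its group ranged from 1081 to 1215. The flags of this sample are therefore not independent of each other. The naïve aged sample 2 had a 7SL share of 18.1%, with the nearest at 12.1%. HDM + Dex sample 7 had 4.25 CPM of Hist1h2ao, with the nearest at 1.66 CPM.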

How the results depend on the processing

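Over the 7 genes tested and 4 comparisons, the alternatives gave 898 log2 fold changes, of which 70 turned direction and 4 newly passed the threshold. Of the 70, 42 were in HDM + Dex vs. saline, 12 in aged vs. adult, 9 in HDM + Dex vs. HDM and 7 in HDM vs. saline. Values of single genes in HDM + Dex vs. saline and in aged vs. adult are given for a few genes only, chosen after the values were seen. The count of the 7 genes called went from 0 to 1 in HDM vs. saline with samples below a 7SL share of 25% (Hist1h2bq, 1.21). There, 658 of all genes were called higher and 414 lower. This alternative, like that of samples with Xist higher, was added after seeing the data. The count went to 1 in HDM + Dex vs. HDM with a sex covariate (Hist1h4m, -1.51), beside 129 of all genes called higher and 164 lower. In HDM + Dex vs. saline, it went to 1 with a replicate block (Hist1h4m, -1.17), beside 116 of all genes called higher and 782 lower. It also went to 1 there with sample quality weights (Hist1h4m, -1.12), for which all-gene counts are not given here.

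The replicate numbers do not pair the samples: deviations of 32 same-numbered pairs had r from -0.24 to 0.41, with 4 over 0.1. With the replicate block, HDM vs. saline turned to -0.16 for Hist1h2bq, -0.027 for Hist1h4m and -0.00276 for Hist1h2br, and Hist1h2ap turned to -0.22 in HDM + Dex vs. saline. With a pseudocount of 0.1, Hist1h2bq turned to -0.47 in HDM vs. saline and to 0.49 in HDM + Dex vs. HDM, and without 7SL and rRNA rows to 0.012 in the latter. Hist1h4m in HDM + Dex vs. saline turned to 0.022 with the 7SL share as a covariate and to 0.10 with samples below a 7SL share of 25%. Hist1h2ap turned to -0.00252 there with a sex covariate. Npat turned to 0.027 in HDM vs. saline with the 7SL share as a covariate. Hist1h4n in aged vs. adult turned to -0.21 with the 7SL share as a covariate, -0.16 with median-of-ratios rescaling, -0.19 with quantile normalization, -0.24 with sample quality weights, -0.16 with samples below a 7SL share of 25%, -0.31 with samples with Xist higher and -0.15 without 7SL and rRNA rows. Leaving out 1 sample gave -0.12 to 0.35 for Hist1h2bq in HDM vs. saline, -0.28 to 0.19 in HDM + Dex vs. HDM, -0.033 to 0.44 for Hist1h2ap in HDM + Dex vs. saline and -0.19 to 0.19 for Hist1h4n in aged vs. adult. The causes were not tested.

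Leaving out 1 sample gave a difference in 7SL share of 11.8 to 15.01 points in HDM vs. saline, lost without naïve aged sample 1, 3, 4 or 5 or HDM sample 1, 2, 3, 4 or 5. It gave 8.93 to 12.3 points in HDM + Dex vs. saline, past the threshold without naïve aged sample 2 or HDM + Dex sample 4 or 7, and -10.2 to -3.15 points in aged vs. adult, past it without naïve aged sample 2. The calls of Mcm2, Bub1b, Npat, Nap1l1, Mcm3, Asf1b and Asf1a in HDM vs. saline were lost when 9, 8, 7, 6, 2, 2 and 1 of the 19 samples, respectively, were left out singly, and that of Rnu1b1 in aged vs. adult for 8 of 10. The number of other histone genes called in HDM vs. saline was 2 of 54 and ranged from 0 to 15. It was 15 with samples below a 7SL share of 25%, where 658 of all 17744 genes were called higher. That setting kept only the 2 HDM samples with the highest sums of the 9 genes. With the 7SL share as a covariate the number was 8, beside 1172 of 17744 genes called higher. It was 4 with median-of-ratios rescaling (1934 of 17681 genes higher) or quantile normalization (1829 of 17744). It was also 4 with a sex covariate (957 of 17744) or without 7SL and rRNA rows (1842 of 18819). The number was 5 with sample quality weights and 1 with a filter at 5 CPM, for which all-gene counts are not given here. It was 0 with samples with Xist higher (7 of all genes called higher, 2 lower) and 1 to 5 with 1 sample left out. A sex covariate was not fitted in aged vs. adult, where all samples with Ddx3y higher are naïve aged.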
